A study of Mus musculus with 22 samples.

Results

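Secreted lipid carriers, membrane transporters and a particle-modifying enzyme of cholesterol export were followed in ribosome-bound RNA of mouse visual cortex. The set held 7 genes, taken by name from the 24537 genes of the deposited table: Apoe, Clu, Apod, Abca1, Abcg1, Abcg4 and Lcat. All 7 were in the table and all 7 passed the mean of 1 FPKM that a gene needed to be tested. FPKM, the unit of every level given here, is a fragment number divided by transcript length and by library size, so levels can be compared between genes per length.

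The series profiled C57BL/6J mice carrying 73.12 GFAP-cre x RPL22-HA, in which Cre puts a hemagglutinin tag on a ribosomal protein so that ribosomes of the marked cells can be pulled down. Pulldown libraries came from 5 groups: 10 days in constant darkness, sampled at postnatal day 120 (3 libraries); darkness from birth, sampled at day 45 (4 libraries); normal rearing on a light and dark cycle, sampled at day 45 (3 libraries); and cortex contralateral (3 libraries) or ipsilateral (3 libraries) to the eye closed for 2 days, sampled at day 28. Each group also had 1 input library, made from whole homogenate of the same region without a pulldown. All groups shared the genotype, standard chow, perfusion with 1% PFA and poly(A) selection. Cre acts permanently, so cells other than astrocytes in which the GFAP driver was once active may carry the tag. The labels do not say whether mice were pooled, and each group's input is a single library. The series calls its pulldowns biological replicates, and the p-values below measure the spread between these libraries. Same-numbered libraries of both monocular sides are read as pairs below. Tests without a term for the pairs, pulldown against input among them, treat those libraries as independent. In bulk RNA of this kind, fewer cells of a type and less RNA per cell cannot be told apart.

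Astrocytes supply much of the cholesterol used by neurons in the adult brain. The transporter Abca1 loads cholesterol and phospholipid onto secreted apolipoproteins, of which Apoe is the main one in brain, and Abcg1 and Abcg4 move further sterol to the particles. Lcat then esterifies cholesterol on the particle surface, which lets the particle take up more. The nuclear receptors Nr1h2 and Nr1h3, also called liver X receptors, bind oxysterols and switch on Abca1, Abcg1 and Apoe. They bind, paired with Rxr proteins, to direct repeats of a hexamer spaced by 4 bases.

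The start-site sequences of 4 of the 7 genes were in the RefSeq promoter table (GRCm38.p6), which spans 250 bases before to 50 bases after each start. They are shown because such a repeat can be looked for in them. Clu, Abcg1 and Abcg4 had no entry there. All 4 lie on the minus strand and are written 5′ to 3′ along the gene. The windows are chr4:53159846-53160145 for Abca1, chr7:19699139-19699438 for Apoe, chr8:105943353-105943652 for Lcat and chr16:31314759-31315058 for Apod. Apoe had other start sites in that source, at 19698621 and 19698398, whose windows are not shown. Capitals mark a direct repeat spaced by 4 bases.
Abca1: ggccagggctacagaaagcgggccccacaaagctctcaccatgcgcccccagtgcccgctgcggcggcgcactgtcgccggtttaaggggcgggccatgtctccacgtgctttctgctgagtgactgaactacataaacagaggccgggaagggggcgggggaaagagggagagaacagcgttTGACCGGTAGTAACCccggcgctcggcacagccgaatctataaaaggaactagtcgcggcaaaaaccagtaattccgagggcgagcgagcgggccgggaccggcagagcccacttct
Apoe: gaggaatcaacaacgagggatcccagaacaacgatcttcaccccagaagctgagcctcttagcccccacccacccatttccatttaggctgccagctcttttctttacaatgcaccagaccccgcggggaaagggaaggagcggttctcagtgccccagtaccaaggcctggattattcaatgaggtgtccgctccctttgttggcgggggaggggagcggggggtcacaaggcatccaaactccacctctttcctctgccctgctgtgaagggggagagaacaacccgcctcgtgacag
Lcat: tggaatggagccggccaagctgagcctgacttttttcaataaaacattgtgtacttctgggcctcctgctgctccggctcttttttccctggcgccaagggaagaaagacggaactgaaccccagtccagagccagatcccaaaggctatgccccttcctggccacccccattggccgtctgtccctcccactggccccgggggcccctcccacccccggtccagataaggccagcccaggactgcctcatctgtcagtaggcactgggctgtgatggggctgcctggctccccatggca
Apod: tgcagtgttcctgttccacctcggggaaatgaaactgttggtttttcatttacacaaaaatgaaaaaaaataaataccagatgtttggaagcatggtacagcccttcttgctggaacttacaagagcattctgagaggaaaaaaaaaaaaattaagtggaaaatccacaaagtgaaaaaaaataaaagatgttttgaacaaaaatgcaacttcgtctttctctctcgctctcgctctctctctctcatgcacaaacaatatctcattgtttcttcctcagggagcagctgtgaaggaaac

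The letters searched were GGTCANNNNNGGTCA, GGTCANNNNNGGTTA, GGTTANNNNNGGTCA and GGTTANNNNNGGTTA on both strands. Of the 4 windows, Abca1 held a match, of the form GGTTANNNNNGGTCA on the opposite strand, which begins at -67 from the start site. The same search matched 70 of 32851 promoters in the table, or 0.213%. The Abca1 window also held the E-box CACGTG at -147 (in 7.15% of promoters) and TATAAA at -29 (in 13.6%). These are matches of letters only, and binding was not measured.

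The pulldowns carried astrocyte RNA in every group. Summed over 10 astrocyte markers, levels ran from 11658 to 16488 FPKM in the 16 pulldowns, against 1398 to 2056 FPKM in the 5 inputs. The 12 neuron markers summed to 267.9 to 1204 FPKM in pulldowns and 3412 to 4008 FPKM in inputs, and the 12 microglia and macrophage markers to 22.8 to 154.0 FPKM in pulldowns and 290.3 to 594.8 FPKM in inputs. Oligodendrocyte markers were not depleted, and 9 of the 10 were higher in pulldowns by the fit described below. Their sums were 1368 to 3570 FPKM over 10 genes in pulldowns and 1031 to 1793 FPKM in inputs. No astrocyte, neuron or oligodendrocyte marker was at 0 in any library, and Mrc1, a macrophage marker, was at 0 in 9 pulldowns. By estimate, 20 libraries held 21.2 to 51.5 M reads each, and contralateral replicate 2 gave no estimate. Rn45s, the precursor of ribosomal RNA, was at 130.3 to 159.5 FPKM in 3 pulldowns (normally reared replicate 3, contralateral replicate 3 and ipsilateral replicate 3) and at 4280 to 31654 FPKM in the other 13.

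The first comparison asked how far each transcript stood above or below whole cortex, by setting pulldowns against inputs. Apoe, Clu and Lcat were about an order of magnitude higher in the pulldown, Abca1 was moderately higher, Abcg1 and Abcg4 were lower, and Apod was near the input. In limma, with a term for the group and Benjamini-Hochberg adjustment over 12070 genes, 6 of the 7 genes passed the threshold of 0.05, 4 higher and 2 lower. Passing was common in this comparison, since 77.1% of all genes tested passed, 26.4% higher and 50.7% lower. The share of all genes whose pulldowns and inputs did not overlap was not counted. Such gaps, given below for single genes, therefore do not set those genes apart. The median log2 fold change was 1.15 over the 7 genes and -0.31 over all genes tested. Cells of the oligodendrocyte lineage were also represented. Of 10 oligodendrocyte markers 7 passed as higher and 0 as lower, and the median of all 10 was 0.68. Of 7 markers of their precursors 6 passed as higher and 1 as lower, with 0.66 as the median. All 10 astrocyte markers passed as higher, and their median was 2.68. The part of oligodendrocyte RNA in the levels of the 7 genes was not tested.

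Apoe lies on chromosome 7 at 19696109 to 19699188 (GRCm38). Its level was 14172, 13856 and 12529 FPKM in the pulldowns after 10 days of darkness, 19951, 16057, 20660 and 18301 FPKM after dark rearing, and 16010, 15510 and 11019 FPKM after normal rearing. In the monocular groups it was 20539, 17654 and 14958 FPKM on the contralateral side and 21170, 14753 and 16318 FPKM on the ipsilateral side. The inputs, in the same order of groups, held 1061, 1825, 747.1, 1354 and 1531 FPKM. Apoe had the highest mean level of all 24537 genes in the pulldowns and the 4th highest in the inputs, and it made up 3.09% to 5.43% of the summed FPKM of a pulldown library, against 0.277% to 0.526% of an input. The lowest pulldown stood above the highest input, and the log2 fold change was 3.68 ± 0.13 (SE, adjusted p = 2.7e-15). Quantile normalization, which gives genes of like rank the same value in every library, put it at 0.96.

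Clu, or apolipoprotein J, is a secreted chaperone that also travels on brain lipoproteins (chromosome 14, 65968483 to 65981547). It was at 4392 to 5162 FPKM after 10 days of darkness, 5516 to 6675 FPKM after dark rearing, 4404 to 5724 FPKM after normal rearing, 5116 to 6329 FPKM on the contralateral side and 4321 to 5966 FPKM on the ipsilateral side. The 5 inputs ranged from 378.2 to 715.7 FPKM. Clu ranked 6th by mean level in the pulldowns and 35th in the inputs, and its log2 fold change was 3.31 ± 0.11 (adjusted p = 1.96e-15). The spread of Clu over all 16 pulldowns was small, with a coefficient of variation of 13.3%, against 18.4% for Apoe.

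Lcat, the enzyme, lies on chromosome 8 at 105939551 to 105943382. It was at 133.1, 140.5 and 114.5 FPKM after 10 days of darkness, 209.2, 187.4, 206.4 and 188.8 FPKM after dark rearing, and 224.3, 209.9 and 168.4 FPKM after normal rearing. In the monocular groups it was 200.9, 206.7 and 168.8 FPKM on the contralateral side and 223.6, 189.4 and 182.6 FPKM on the ipsilateral side. The 3 libraries of day 120 were the lowest of all 16 pulldowns, yet all stood above the inputs, which held 12.7 to 25.5 FPKM. The log2 fold change of pulldown over input was 3.33 ± 0.11 (adjusted p = 1.96e-15), close to that of Apoe and Clu. An antisense gene, Gm16156, overlaps Lcat on the other strand, and strand use in counting is not given in the sources used here, so reads of both cannot be told apart.

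**Figure D1:**
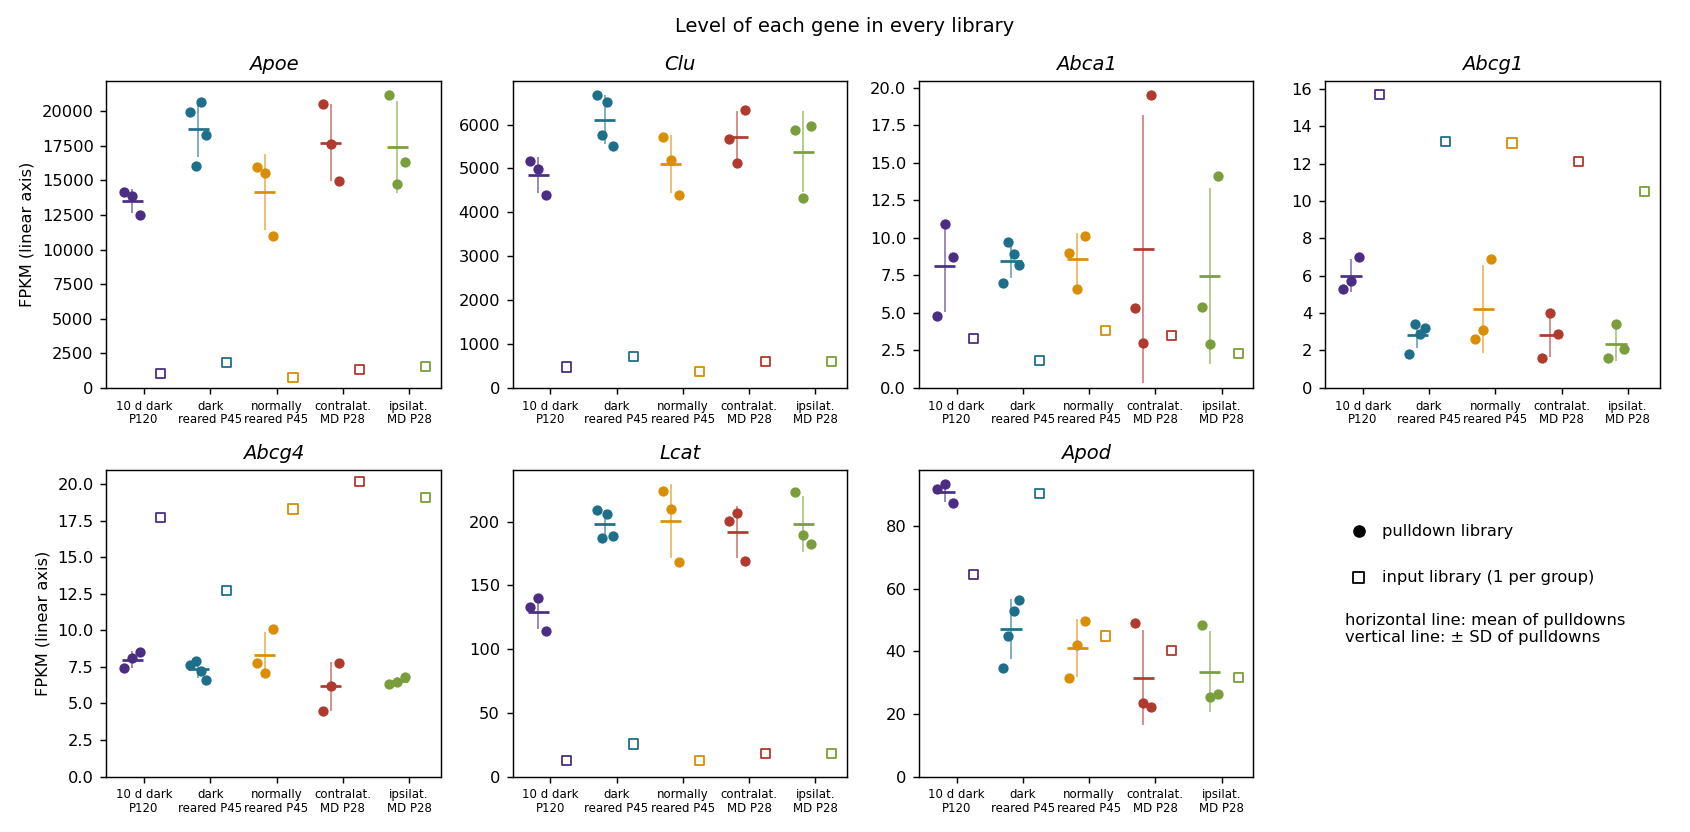
Level in FPKM (linear axis) of each of the 7 genes in every library, by group; dots are pulldowns with their mean and SD, open squares the single input of each group. Apoe, Clu and Lcat sit far above their inputs, Abcg1 and Abcg4 below them, and the 3 pulldowns of day 120 are the lowest for Lcat (114.5 to 140.5 FPKM) and the highest for Apod (87.4 to 93.5 FPKM).

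The 3 transporters were scarce beside these. Abca1 (chromosome 4, 53030787 to 53159895) was at 4.8, 10.9 and 8.7 FPKM after 10 days of darkness, 7.0, 9.7, 8.9 and 8.2 FPKM after dark rearing, and 9.0, 6.6 and 10.1 FPKM after normal rearing. On the contralateral side it was at 5.3, 3.0 and 19.5 FPKM and on the ipsilateral side at 5.4, 2.9 and 14.1 FPKM. Both extremes of the 16 pulldowns thus fell in the monocular groups, and the libraries at 3.0 and 2.9 FPKM lay within the range of the inputs, 1.8 to 3.8 FPKM. Abca1 was higher in pulldown than in input by 1.15 ± 0.29 on the log2 scale (adjusted p = 0.00142), with the widest error of the 7 genes.

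Abcg1 (chromosome 17, 31057675 to 31117988) was lower in the pulldown, by -1.67 ± 0.18 on the log2 scale (adjusted p = 4.3e-08). Its pulldown levels were 5.3, 5.7 and 7.0 FPKM after 10 days of darkness, 1.8, 3.4, 2.9 and 3.2 FPKM after dark rearing, and 2.6, 3.1 and 6.9 FPKM after normal rearing. The contralateral side held 1.6, 4.0 and 2.9 FPKM and the ipsilateral side 1.6, 3.4 and 2.1 FPKM. Every pulldown lay below every input, at 10.5 to 15.7 FPKM. A short gene annotated as rRNA, Gm25447, lies within Abcg1 on the same strand.

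Abcg4, a close relative of Abcg1 (chromosome 9, 44273188 to 44288615), was lower by -1.16 ± 0.12 (adjusted p = 2.16e-08). It was at 7.4 to 8.5 FPKM after 10 days of darkness, 6.6 to 7.9 FPKM after dark rearing, 7.1 to 10.1 FPKM after normal rearing, 4.5 to 7.8 FPKM on the contralateral side and 6.3 to 6.8 FPKM on the ipsilateral side, against 12.7 to 20.2 FPKM in the inputs. As with Abcg1, no pulldown reached an input.

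Apod, a small lipocalin that binds arachidonic acid and other lipids rather than cholesterol (chromosome 16, 31296192 to 31314808), did not pass, with a log2 fold change of -0.22 ± 0.20 (adjusted p = 0.329). Its pulldown levels were 91.8, 93.5 and 87.4 FPKM after 10 days of darkness, 34.5, 44.9, 52.8 and 56.2 FPKM after dark rearing, and 31.4, 42.1 and 49.7 FPKM after normal rearing. The contralateral side held 49.1, 23.5 and 22.1 FPKM and the ipsilateral side 48.3, 25.4 and 26.5 FPKM. The inputs held 64.6, 90.3, 44.9, 40.2 and 31.5 FPKM in the same order of groups, so pulldown and input overlapped.

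Set against the single input of its own group, the mean of the pulldowns was higher for Apoe, Clu, Lcat and Abca1 and lower for Abcg1 and Abcg4 in each of the 5 groups. The log2 ratio of Apoe was 3.67 after 10 days of darkness, 3.35 after dark rearing, 4.22 after normal rearing, 3.70 on the contralateral side and 3.49 on the ipsilateral side. Clu ranged over groups from 3.09 to 3.74 and Lcat from 2.91 to 3.87, each lowest after dark rearing and highest after normal rearing, as for Apoe. Abca1 ranged from 0.83 to 1.75, Abcg1 from -1.91 to -1.26 and Abcg4 from -1.59 to -0.72. For Apod the sign differed between groups, with 0.49 after 10 days of darkness and -0.95 after dark rearing. With 1 input a group these ratios have no test, and the spread of the inputs is not known.

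**Figure D2:**
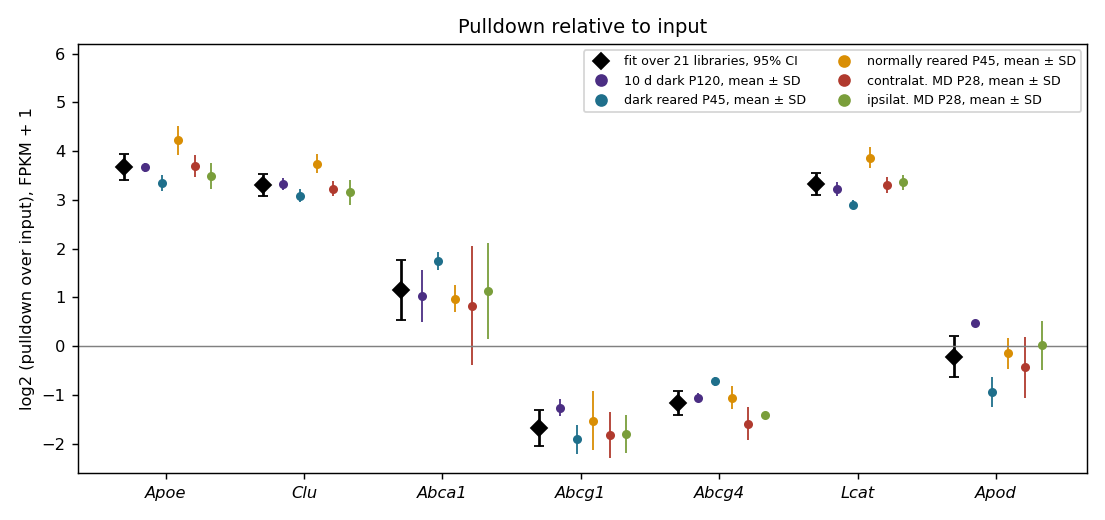
Log2 ratio of pulldown over input for each gene, on log2(FPKM + 1); black diamonds are the limma fit over 21 libraries with its 95% confidence interval, coloured dots the mean ± SD of each group's pulldowns over its single input. Apoe (3.68), Lcat (3.33) and Clu (3.31) form the upper set, Abca1 is at 1.15, Apod straddles 0, and Abcg4 (-1.16) and Abcg1 (-1.67) lie below.

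Other genes of the pathway were counted in lists chosen, like the 7 genes, with earlier results of these data known. Among other lipoprotein components, 2 of 5 tested were higher and 1 lower in the pulldown. Apoc1, a small exchangeable apolipoprotein encoded beside Apoe, was higher by 2.28 ± 0.18, and Lpl, lipoprotein lipase, lower by -1.82 ± 0.20. Of 11 tested lipoprotein receptors and their regulators 4 were higher, including Lrp4 at 2.53, and 5 lower, including Trem2, a microglial receptor for lipids and lipoproteins, at -2.71, and Mylip, a ubiquitin ligase for lipoprotein receptors, at -1.38. Of 8 nuclear receptors and partners, Nr1h3 was higher at 1.33 and the corepressor Ncor1 lower at -0.60. Nr1h3 averaged 3.98 FPKM in pulldowns and 0.96 FPKM in inputs, whereas Nr1h2 averaged 18.3 FPKM in pulldowns and 20.1 FPKM in inputs and did not pass.

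Of 8 other ABC lipid transporters tested, 2 were higher, among them Abca8a at 0.61, and 1 was lower, the endothelial exporter Abcg2 at -1.26. Of 16 genes for cholesterol trafficking, storage and oxidation, 6 were higher and 6 lower. Npc2, which hands cholesterol out of lysosomes, was at 2.12, the sterol carrier Scp2 at 1.51, the oxysterol hydroxylase Cyp7b1 at 1.43, and Nceh1, a cholesteryl ester hydrolase, at -2.34. Against the shares of all genes (26.4% higher and 50.7% lower), these lists together had 15 higher and 14 lower of 48.

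The second comparison set dark rearing against normal rearing at day 45, the effect of never having seen light. None of the 7 genes passed. Of 11562 genes limma called 1 (0.00865%), and 640 had a p under 0.05 before adjustment. Apoe averaged 18742 ± 2045 FPKM after dark rearing (SD, n = 4) and 14180 ± 2748 FPKM after normal rearing (SD, n = 3). All 4 dark-reared libraries stood above all 3 normally reared ones, by a narrow margin of 16057 against 16010 FPKM. The log2 fold change was 0.42 ± 0.17, with a 95% confidence interval of 0.05 to 0.78 and an adjusted p of 0.866. Of all genes tested, 2.71% were higher in dark rearing without overlap and 9.06% lower. Without normally reared replicate 3, the lowest library, the Apoe difference was 0.24. Under quantile normalization Apoe, at the top rank, differed by 0.

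Clu followed in the same direction without passing, at 0.26 ± 0.15 (95% CI -0.06 to 0.58), and its groups overlapped. Under quantile normalization its difference was -0.14. Neuron markers summed to 267.9 to 426.9 FPKM in the dark-reared pulldowns and to 432.8, 642.3 and 1204 FPKM in the normally reared ones, so lower neuron sums went with higher Apoe. Endothelial markers summed to 3.4 to 11.1 FPKM in the dark-reared pulldowns and to 2.4 to 3.1 FPKM in the normally reared ones, again without overlap, with a median log2 difference of 0.75 over the 2 tested. All 5 tested markers of pericytes and smooth muscle were above 0, with a median of 0.23, and 0 of either list passed. Over the 16 pulldowns the r of Apoe was 0.49 with the endothelial and 0.50 with the pericyte and smooth muscle markers. The part of these cells and of neuronal RNA in the difference was not tested. The remaining genes had log2 fold changes of -0.37 ± 0.29 for Abcg1, -0.15 ± 0.16 for Abcg4, 0.19 ± 0.28 for Apod, and -0.01 for both Lcat (SE 0.14) and Abca1 (SE 0.49). For Lcat the 95% interval was -0.31 to 0.28, and for Abca1 it was -1.05 to 1.03. These intervals rest on a spread shared by all 5 pulldown groups. The SD of Abca1 was 8.94 FPKM on the contralateral and 5.88 FPKM on the ipsilateral side. It was 1.14 FPKM after dark rearing and 1.79 FPKM after normal rearing. The Abca1 interval thus does not measure the spread of the compared groups alone. The value of Abcg1 was -0.03 without normally reared replicate 3, the library with the highest neuron sum, -0.23 without dark-reared replicate 1 and -0.59 without normally reared replicate 1. With array weights it was -0.11.

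In the inputs the same contrast had 1 library a side and no test. Apoe was at 1825 FPKM in the dark-reared and 747.1 FPKM in the normally reared input, a log2 difference of 1.29. Lcat at 25.5 and 12.7 FPKM, Clu at 715.7 and 378.2 FPKM and Apod at 90.3 and 44.9 FPKM were also higher in the dark-reared input, by 0.95, 0.92 and 0.99. Abca1 was at 1.8 FPKM in the dark-reared and 3.8 FPKM in the normally reared input, and Abcg4 at 12.7 and 18.3 FPKM in the same inputs, log2 differences of -0.78 and -0.49. Abcg1, at 13.2 and 13.1 FPKM, differed by 0.01. Of 12563 genes with a mean above 1 FPKM in the inputs, 4.07% had a log2 difference above 1 and 6.04% one below -1, and of the 7 genes Apoe was above 1. Marker sums moved as well: 594.8 against 290.3 FPKM for microglia and macrophages, and 2056 against 1398 FPKM for astrocytes. All genes summed to 346864 FPKM in the dark-reared and 270115 FPKM in the normally reared input, with 15964 and 16702 genes above 0. Transcripts of Apoe, Lcat, Clu and Apod were 1070 to 1810 bases long, and those of Abcg4, Abcg1 and Abca1 3999, 5832 and 10262 bases. The part of cell types, library totals and transcript length in these differences was not tested.

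Of the wider pathway, no gene passed between dark and normal rearing. Apoc1 had 0.65 ± 0.29 and Pltp, which moves phospholipid between particles, 0.66 ± 0.40, whereas Ncor1 had -0.58 ± 0.32 and Vldlr -0.39 ± 0.38, all with an adjusted p of 0.866 or higher in limma.

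The third comparison set the side contralateral to the closed eye, which receives most of its input, against the ipsilateral side after 2 days of monocular deprivation. None of the 7 genes passed, 0 of 11562 genes passed in limma (0%), and 84 had an unadjusted p under 0.05. Log2 differences ran from -0.11 ± 0.30 for Apod to 0.17 ± 0.31 for Abcg1. For Apoe the difference was 0.03 ± 0.18 (95% CI -0.36 to 0.42) and for Clu 0.09 ± 0.16 (95% CI -0.25 to 0.44). Of the wider pathway no gene passed either, and Mylip was at 0.25 ± 0.18 and Osbp, an oxysterol-binding protein, at -0.30 ± 0.27. No gene of the 7 had sides that did not overlap, whereas 0.199% of all genes were higher and 1.37% lower on the contralateral side without overlap.

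Libraries with the same number on both sides deviated together, so the numbers were read as pairs. With the pair as a block the values stayed at 0.03 ± 0.14 for Apoe and 0.15 ± 0.23 for Abca1, against errors of 0.18 and 0.52 without it, and again none of the 7 genes passed. The pairs differed from each other more than the sides did. Abca1 was at 5.3 FPKM contralaterally and 5.4 FPKM ipsilaterally in pair 1, 3.0 and 2.9 FPKM in pair 2, and 19.5 and 14.1 FPKM in pair 3. Apod was at 49.1 and 48.3 FPKM in pair 1, 23.5 and 25.4 FPKM in pair 2, and 22.1 and 26.5 FPKM in pair 3.

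The Abca1 transcript is long, 10262 bases, and long transcripts as a class also split these libraries. Over 455 genes with transcripts above 8000 bases, the median deviation from the gene's mean, in log2, was -0.50 and -0.54 in contralateral replicates 1 and 2 and 0.37 in replicate 3. On the ipsilateral side it was -0.41 and -0.38 in replicates 1 and 2 and 0.24 in replicate 3. Abca1 itself deviated by -0.45, -1.10 and 1.26 on the contralateral side and by -0.42, -1.14 and 0.82 on the ipsilateral side. The share of long-transcript recovery in the level of Abca1 was not tested. Both monocular libraries numbered 3, with normally reared replicate 3, are also those with Rn45s at 159.5 FPKM or less.

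**Figure D3:**
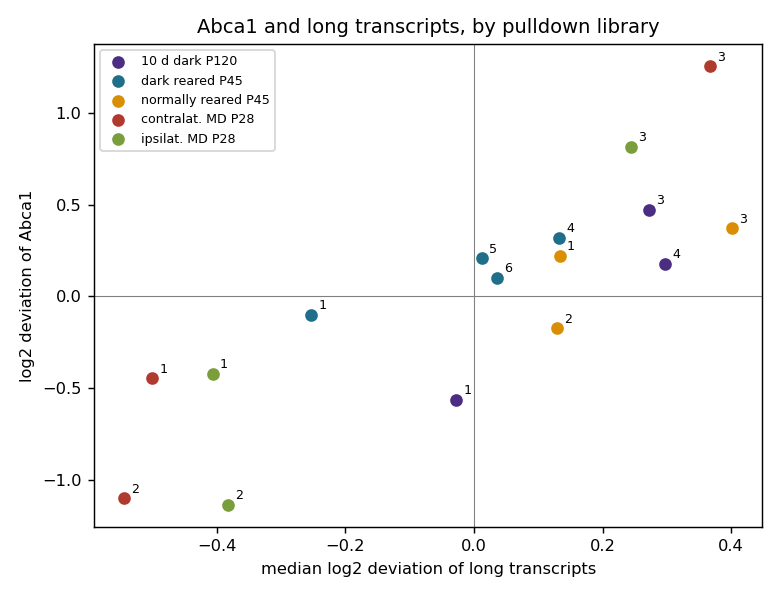
Each dot is a pulldown library, labelled by its replicate number and coloured by group; the x axis is the median log2 deviation of 455 long transcripts from their means, the y axis the log2 deviation of Abca1. Monocular replicates 1 and 2 lie at the lower left and replicate 3 of both sides at the upper right, from -1.14 to 1.26 for Abca1.

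The fourth comparison set 10 days of darkness at day 120 against normal rearing at day 45. Age and darkness changed together, so their effects cannot be told apart. The normally reared libraries are the same as in the second comparison. None of the 7 genes passed, while 10 of 11562 genes did in limma (0.0865%; 0.0778% higher and 0.00865% lower), and 442 had an unadjusted p under 0.05. The lowest p among the 7 belonged to Lcat and Apod.

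Lcat averaged 129.4 ± 13.4 FPKM at day 120 and 200.9 ± 29.0 FPKM in normally reared mice (SD, n = 3 each). The groups did not overlap, and all 3 libraries of day 120 lay below all other 13 pulldowns, of which the lowest held 168.4 FPKM. The log2 difference was -0.63 ± 0.15 (95% CI -0.94 to -0.31, adjusted p = 0.234). Of all genes tested, 4.6% were lower at day 120 than in normal rearing without overlap, and 0.363% were lower than in all other pulldowns.

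Apod averaged 90.9 ± 3.15 FPKM at day 120 and 41.1 ± 9.19 FPKM in normally reared mice (SD, n = 3 each). Here too the groups did not overlap, and the lowest library of day 120, at 87.4 FPKM, stood above the highest of the other 13, at 56.2 FPKM. The log2 difference was 1.15 ± 0.30 (95% CI 0.51 to 1.79, adjusted p = 0.371). Without overlap, 6.31% of all genes were higher at day 120 than in normal rearing and 2.6% higher than in all other pulldowns. The inputs differed less, with 64.6 FPKM of Apod at day 120 and 44.9 FPKM in normal rearing, a log2 difference of 0.52.

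Markers of other cells moved with the day 120 group. Microglia and macrophage markers summed to 89.4, 99.1 and 154.0 FPKM in ascending order at day 120 and to 22.8 to 37.8 FPKM in normal rearing, and 6 of 11 tested passed, all higher. Of the 10 oligodendrocyte markers 0 passed, with sums of 2104 to 2566 FPKM at day 120 and 1522 to 2314 FPKM in normal rearing. Their log2 differences were above 0 for 8 and below 0 for 2, with a median of 0.20. Neuron sums were 726.7 to 1175 FPKM at day 120 and 432.8 to 1204 FPKM in normal rearing. All 11 neuron markers tested had log2 differences above 0, with a median of 0.28. Endothelial sums were 4.5 to 9.8 FPKM at day 120 and 2.4 to 3.1 FPKM in normal rearing, and the 2 tested had a median log2 difference of 0.79. Astrocyte markers, of which Lcat is not one, summed to 12038 to 14305 FPKM at day 120 and to 13579 to 15349 FPKM in normal rearing, and 9 of 10 were below 0, with a median of -0.22. Of neuron, endothelial and astrocyte markers 0 passed. The part of these cells in the levels of Lcat and Apod was not tested.

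Abcg1 was at 0.51 ± 0.31 between day 120 and normal rearing (adjusted p = 1), with overlapping groups, since normally reared replicate 3 held 6.9 FPKM. The other 4 genes had log2 differences of -0.11 for Abca1, -0.07 for Clu, -0.05 for Apoe and -0.04 for Abcg4. In the wider pathway no gene passed, and Trem2 was nearest at 1.43 ± 0.31 (adjusted p = 0.163), with 4.37 ± 2.54 FPKM at day 120 and 0.867 ± 0.208 FPKM in normal rearing. Trem2 is also one of the microglia markers above. Cyp27a1, which makes an oxysterol, had 0.34 ± 0.11 (adjusted p = 0.683).

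**Figure D4:**
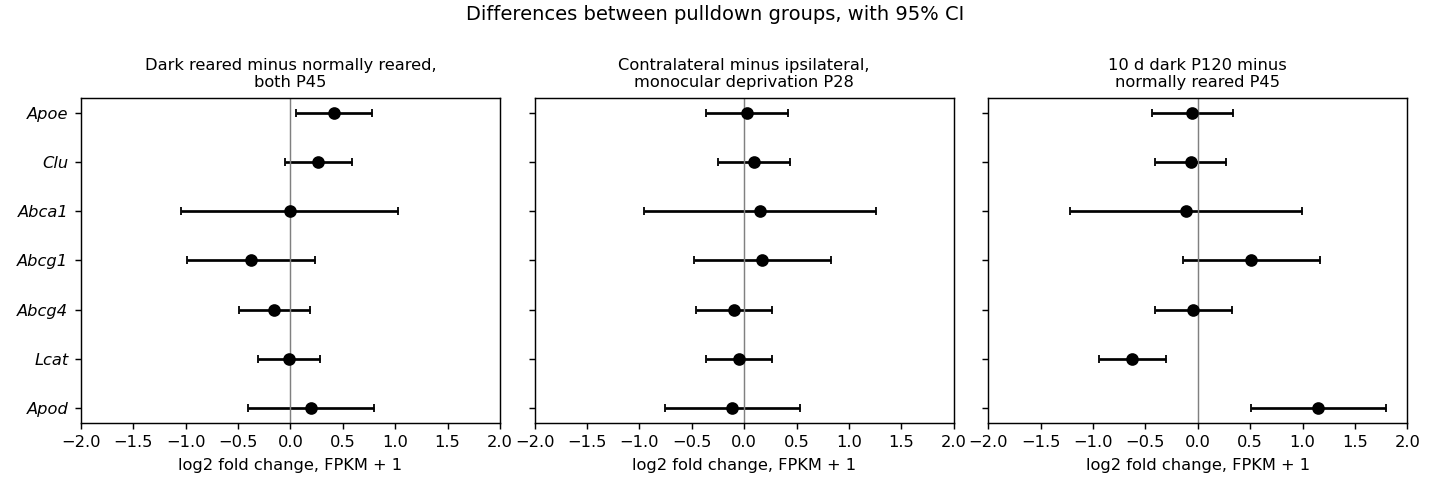
Log2 fold change on log2(FPKM + 1) of each gene with its 95% confidence interval in 3 comparisons of pulldown groups, dark reared minus normally reared, contralateral minus ipsilateral, and day 120 after 10 days of darkness minus normally reared at day 45. Lcat (-0.63) and Apod (1.15) in the last panel and Apoe (0.42) in the first have intervals that leave out 0, and none of them passed after adjustment over 11562 genes.

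Whether the effect of dark rearing differed from that of monocular deprivation was tested as the difference of both effects, from 4 groups that share no library. None of the 7 genes passed. Of 11562 genes limma called 0 (0%), and 116 had a p under 0.05 before adjustment. With the monocular pairs as a block, 1 gene passed, not one of the 7, and 738 had an unadjusted p under 0.05. Without that block, Apoe had the largest positive value, 0.39 ± 0.25 (95% CI -0.15 to 0.92). Abcg1 had the largest negative one, -0.55 ± 0.42 (95% CI -1.44 to 0.35). The block left both values the same, with errors of 0.20 for Apoe and 0.34 for Abcg1. With 1 library left out and no block, Abcg1 ran from -0.80 without contralateral replicate 1 to -0.20 without normally reared replicate 3. With array weights Abcg1 was -0.06. Apoe was 0.21 without normally reared replicate 3, 0.24 without ipsilateral replicate 1 and 0 under quantile normalization. No gene of the wider pathway passed, with Apoc1 at 0.85 ± 0.43.

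A moderated F test in limma over all 5 pulldown groups asked whether a gene's level differed anywhere among them. The test had no term for the monocular pairs, so its p-values treat those libraries as independent. An F test with the pair as a block was not run. Of 11562 genes 201 passed (1.74%), and of the 7 genes Apod did, with F = 8.84 and an adjusted p of 0.0457. Over 25 alternatives the adjusted p of Apod ran from 0.000513 to 0.222 and stayed under the threshold in 9. It was above the threshold without any one of the 3 libraries of day 120, where it was 0.176 to 0.206, and also without any of the 4 dark-reared ones, normally reared replicates 2 or 3, contralateral replicate 2, or ipsilateral replicates 2 or 3. Lcat had F = 6.78 and an adjusted p of 0.0844 (0.0292 without contralateral replicate 3), Abcg1 0.233, Apoe 0.360, and Abca1 0.966. Of the wider pathway Trem2 passed, with an adjusted p of 0.0233. Trem2 is also one of the microglia and macrophage markers, of which 9 of 11 tested passed this F test. The part of these cells in the level of Trem2 was not tested.

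By mean level, the groups were ordered alike for Apoe and Clu: dark rearing highest, then contralateral, ipsilateral and normally reared, and day 120 lowest. Every pair of neighbours in that order overlapped for both genes. For Apod the order was day 120, dark rearing, normal rearing, ipsilateral and contralateral, with a gap between day 120 and dark rearing and overlap between all later neighbours. For Lcat the 4 upper groups overlapped from neighbour to neighbour, at means of 192.1 to 200.9 FPKM, and day 120 stood apart at 129.4 FPKM. All neighbours overlapped for Abca1, Abcg1 and Abcg4.

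Over the 16 pulldowns some of the genes moved together. Pearson's r on log2(FPKM + 1) was 0.73 between Apoe and Clu, 0.69 between Apoe and Lcat, and 0.66 between Abcg1 and Abcg4. It was -0.85 between Apoe and Abcg1, -0.72 between Apoe and Abcg4, and -0.63 between Lcat and Apod. The libraries share groups, depth and RNA of other cell types, so these values describe the libraries and carry no test.

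Abcg1 and Apoe ran in opposite directions along the neuron marker level. The r with the mean log2 level of the 12 neuron markers was 0.89 for Abcg1 (Spearman 0.91), -0.86 for Apoe (Spearman -0.91) and -0.87 for Clu (Spearman -0.81). Of all 16 pulldowns, normally reared replicate 3 had the highest neuron sum, 1204 FPKM, and with it the lowest Apoe, 11019 FPKM, and the second highest Abcg1, 6.9 FPKM. Replicate 1 of both monocular sides had neuron sums of 285.6 and 283.1 FPKM and the lowest Abcg1, 1.6 FPKM. The r of Abca1 was highest with the astrocyte markers, 0.89, and that of Lcat was -0.82 with the microglia and macrophage markers (Spearman -0.41) and -0.69 with the neuron markers (Spearman -0.61). FPKM values of a library are shares of 1 total, which ties them to each other.

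**Figure D5:**
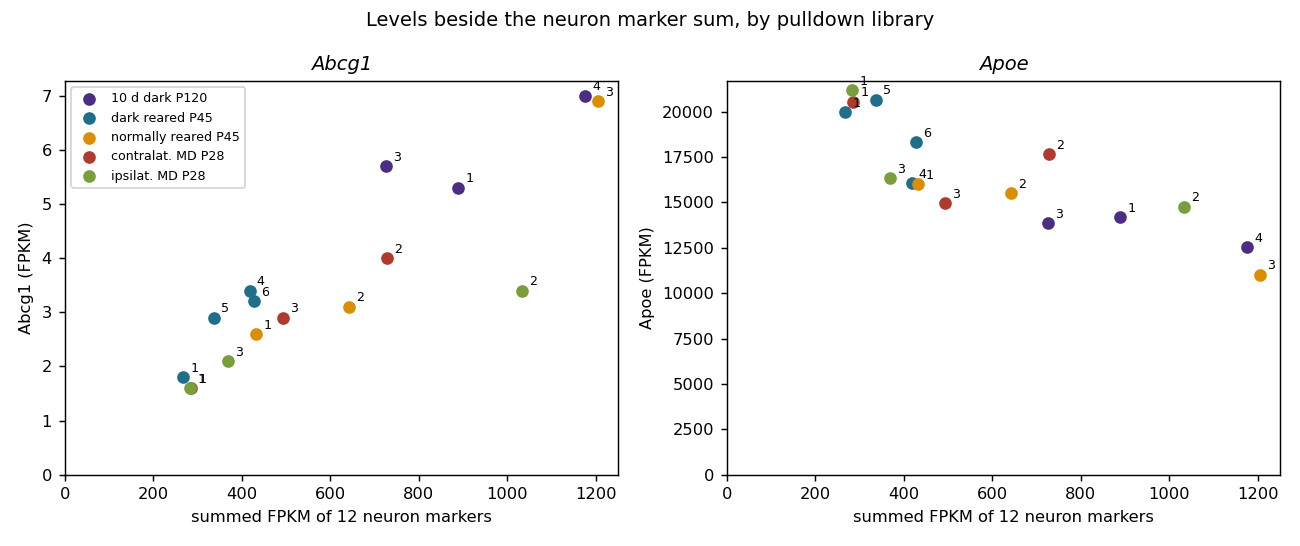
Level in FPKM of Abcg1 (left) and Apoe (right) against the summed FPKM of 12 neuron markers, 1 dot for each of the 16 pulldown libraries, coloured by group and labelled by replicate number. Abcg1 is lowest at 1.6 FPKM where the neuron sum is 285.6 and 283.1 FPKM, and Apoe is lowest at 11019 FPKM where the sum is highest, at 1204 FPKM.

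For each gene the 3 most similar profiles over the 16 pulldowns were taken by r among 11562 genes. Apod was closest to Trf, transferrin, at 0.98, to Hapln2, a matrix protein at nodes of Ranvier, at 0.95 and to Ndrg1 at 0.94. Trf averaged 195.2 ± 9.54 FPKM at day 120 and 105.7 ± 25.9 FPKM in normal rearing (SD, n = 3 each), and Hapln2 3.37 ± 0.29 and 1.30 ± 0.36 FPKM in the same groups. Mbp, the abundant myelin gene and 1 of the 10 oligodendrocyte markers, had another order. It averaged 1053 ± 69.2 FPKM at day 120, 745.8 ± 142.7 FPKM in normal rearing and 1305 ± 281.8 FPKM on the contralateral side (SD, n = 3 each). With the mean log2 level of all oligodendrocyte markers the r of Apod was 0.43 (Spearman 0.50). With the microglia and macrophage markers it was 0.72 (Spearman 0.32). The part of either cell type in the level of Apod was not tested.

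Abca1 was closest to Mtmr10 at 0.98, to the receptor Notch1 at 0.97 and to the protocadherin Pcdh17 at 0.97, and Notch1 averaged 7.27 ± 5.16 FPKM on the contralateral side (SD, n = 3). Abcg1 was closest to Sez6l2 at 0.97, Nptx1 at 0.97 and Slc6a7 at 0.96. Nptx1, neuronal pentraxin, was lower in pulldowns than in inputs, at 6.07 to 20.4 FPKM as group means of pulldowns and 47.9 to 94.4 FPKM in inputs. Abcg4 was closest to Mfn2, a mitochondrial fusion protein, at 0.93, Mrgpre at 0.92 and Smpd3 at 0.91.

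Lcat was closest to Ntsr2, a neurotensin receptor, at 0.88, to Mvd, an enzyme of cholesterol synthesis, at 0.86 and to Tmem176b at 0.86. Mvd averaged 53.5 ± 2.98 FPKM at day 120 and 83.7 ± 24.5 FPKM in normal rearing, and Ntsr2 552.6 ± 35.8 and 681.8 ± 114.8 FPKM in the same groups (SD, n = 3 each). Apoe was closest to Clic1 at 0.93, Ddah2 at 0.92 and Gm17750 at 0.89, and Clu to Tmem51 at 0.85, Cyp4f15 at 0.84 and Ctsf at 0.82. These likenesses were picked as the highest among all genes compared and describe these libraries only.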

How the data were processed

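The authors deposited 1 table of FPKM values, rounded to 0.1, for 24537 genes, each with a single RefSeq transcript. The submitters' processing notes name STAR 2.5.1b and HOMER 4.10 (build mm10), with CASAVA 1.8.2 and FastQC 0.11.2 for the reads, and DESeq2 under R 3.4.3; their order is not given in the sources used here. Of 22 samples in the labels, 17 of them pulldowns, 16 pulldowns and 5 inputs were used: dark-reared replicate 2 was not analysed here, and 1 further sample column was not used. Columns named by day 45 without dark rearing were read as normal rearing. Because counts were not used, depth was estimated from the steps between FPKM values of genes under 130 bases. By that estimate the fewest reads behind a value were 247 for Abcg1 and 498 for Abca1.

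For tests, values were taken as log2(FPKM + 1), and log2 fold changes on that scale understate changes of low genes. A linear model was fitted in R 4.3.3 with limma 3.58.1 (moderated by eBayes, trend and robust both on), 2-sided, over genes with a mean above 1 FPKM in the fit. Adjustment was by Benjamini-Hochberg over all genes of a comparison, with a threshold of 0.05. Pulldown and input were compared over 21 libraries with a term for the group, and the groups over the 16 pulldowns. The 7 genes and all lists were chosen with earlier results of these data known. All 7 were named in every comparison, with the 3 genes of highest r for each, and every list gave at most 4 passing genes by p, or the 2 of smallest p where none passed. Some genes that this rule names are not reported here. Mbp, named beside Apod, was chosen after its values were seen.

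The monocular numbers were taken as pairs because the deviations of same-numbered libraries correlated at 0.802, 0.790 and 0.903 across genes. The fits were also run on simulated data with independent noise in each library. That setting lacks the pairs seen here, so it does not bear on fits without a term for them. Positions came from GENCODE vM21 on GRCm38, and promoter sequences from RefSeq. Tables were made in Python 3.11.15 (pandas 2.3.3) and figures in matplotlib 3.10.9. Alternatives were a pseudocount of 0.1 or 5, dropping the filter or raising it to 5 FPKM, scaling by quantiles or by median ratios, array weights, the compared groups alone, the replicate block and each library left out.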

Additional observations from a re-analysis of the deposited data

How the results depend on the processing

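The calls of pulldown against input held for the 7 genes in all 32 alternatives, 6 passing in each. Between dark and normal rearing, between the monocular sides and in the difference of those effects, 0 of the 7 passed in any alternative. Over all genes, the count for pulldown against input was 6070 with a filter at 5 FPKM and 8752 to 9476 with 1 library left out.

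For dark against normal rearing, 2 genes passed with a pseudocount of 5, a filter at 5 FPKM, quantile normalization or median-ratio scaling, 27 with array weights, 0 without a filter and 0 without the 3 libraries of low Rn45s, and 0 to 3 with 1 library left out. For the monocular sides it was 1 without a filter, 1 without both libraries numbered 3, 1 without the 3 libraries of low Rn45s, and 0 to 1 with 1 library left out. With the replicate block it was 0, with 390 genes at an unadjusted p under 0.05. The difference of effects gave 1 gene without a filter, with the replicate block and without either set of libraries, and 0 to 1 with 1 left out.

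For day 120 against normal rearing the count was 20 with a pseudocount of 5, 53 without a filter, 0 with a filter at 5 FPKM, 1 with the compared groups alone, 16 without both monocular libraries numbered 3, and 4 to 15 with 1 library left out. With array weights 258 of 11562 genes passed, 3 of the 7 among them: Lcat (-0.75, adjusted p = 0.00169), Apod (1.17, adjusted p = 0.00349) and Abcg1 (0.80, adjusted p = 0.0430). Those 2 groups share only the numbers 1 and 3, whose deviations correlated at 0.218 and -0.082, so they were not read as pairs, and the replicate block gave 4 genes. No paired analysis was possible between dark and normal rearing, because those groups share only number 1 among the libraries used.

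For the F test over 5 groups, 130 genes passed after median-ratio scaling, 7192 with array weights, 4131 without both monocular libraries numbered 3, 3722 without the 3 of low Rn45s, and 33 to 1130 with 1 library left out, the highest without contralateral replicate 3. Of the 7 genes, 0 passed with a pseudocount of 0.1, no filter, quantile normalization or median-ratio scaling, 6 with array weights, 3 without both libraries numbered 3, 3 without the 3 of low Rn45s, and 0 to 2 with 1 library left out. Passing was common over all genes with array weights (7192 of 11562) and without either set of libraries, so the counts of 6 and 3 do not set the 7 genes apart. The cause of these changes was not tested. Leaving out both sets of libraries was chosen after seeing the data. All pulldown groups shared 1 estimate of the spread, and 0 passing does not show that levels were equal.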
